A study of Homo sapiens with 12 samples.

Results

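The genes described here are 43 genes of the G2 phase and of mitosis, found by gene symbol in a table of 20979 rows. Each of the 43 symbols stood on 1 row, and all 43 passed the filter on low values that 12276 rows passed (FPKM above 1 in at least 3 libraries). FPKM is a fragment count scaled by transcript length and by the mapped fragments of the library, so it can be compared between genes. The 12 polyA RNA-seq libraries came from 3 human kidney cell lines: A704 and CAKI-1, labelled as cancer, and HK2, labelled as normal. A704 and CAKI-1 are renal carcinoma lines, and HK2 is a proximal tubule line immortalised with papillomavirus genes. Each line was transfected at 25 nM with 1 of 4 siRNAs, named here control (non-targeting), LATS, PTPN14-1 and PTPN14-2, and RNA was taken at 48 h, before the cells were replated for a growth assay. Every line and siRNA gave 1 library, so each siRNA has 3 libraries and each line 4. The labels name a growth medium for each line, so line and medium cannot be told apart.

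Cells enter mitosis when CDK1, bound to cyclin B and activated by CDC25 phosphatases, phosphorylates many substrates. Aurora and Polo kinases and kinesin motors then build the spindle and attach chromosomes to it. CDC20 with the anaphase-promoting complex ends mitosis by marking cyclins and securin for destruction. Most of the genes are transcribed in late S phase, G2 and M, under the factors FOXM1 and B-MYB, and their summed mRNA in a culture follows the share of cells in these phases. In bulk RNA, fewer cells in G2 and M and less mRNA per such cell cannot be told apart. PTPN14 is a tyrosine phosphatase and the LATS kinases phosphorylate YAP; both restrain YAP, a coactivator whose targets include growth genes.

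Late cell cycle promoters are known for a pair of elements, the CCAAT box and, close to the start site, the cell cycle genes homology region (CHR). They were searched because the genes are held to move together. The RefSeq promoter table (GRCh38.p14) gives 250 bases before to 50 bases after each start, and it held 47 windows for 37 of the 43 genes. No window was matched for TTK, BIRC5, TPX2, AURKA, UBE2C and FOXM1. A CHR, searched as TTTGAA or TTCGAA on both strands, was in 32 of the 47 windows (68.1%), against 16.4% of all 35116 windows of the table. CCAAT, also on both strands, was in 35 windows (74.5%), against 34.6% of all. Both words were in 27 windows (57.4%), against 6.38% of all. The E2F words TTTGGCGC, TTTCCCGC and TTCCCGCC were in 4 windows (8.51%), against 4.59%. These shares describe letters in a window and were not tested, and a match is not a shown binding site.

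The stretches below show how the words sit. The first pair are the 120 bases before the start of KIF11, a kinesin that pushes spindle poles apart, and of MKI67, whose protein Ki-67 coats mitotic chromosomes. They were chosen as genes whose stretch lies outside annotated exons. Capitals mark CCAAT (read as ATTGG on the other strand) and the CHR (read as TTCAAA on the other strand).
KIF11, chr10:92593010-92593129, plus strand: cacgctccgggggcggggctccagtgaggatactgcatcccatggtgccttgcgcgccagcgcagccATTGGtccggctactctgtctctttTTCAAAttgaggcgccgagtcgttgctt
MKI67, chr10:128126424-128126543, minus strand: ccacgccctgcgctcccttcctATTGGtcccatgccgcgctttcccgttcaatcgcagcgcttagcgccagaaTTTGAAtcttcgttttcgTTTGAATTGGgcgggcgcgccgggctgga
In both, an ATTGG lies upstream of a CHR, and in MKI67 the last CHR shares bases with a second ATTGG.

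The next set gives 30 bases around the CHR nearest the start for the gene with the highest mean FPKM in each role whose CHR has 12 bases of window on each side, and for HMMR, which differed between the PTPN14 siRNAs. CENPF, the highest centromere gene, holds a CHR 41 bases after its start, too near the window's end for such a stretch, and NUF2 is shown in its place. Each is printed on the strand that reads TTTGAA, with the word in capitals.
CDK1, chr10:60778475-60778504, minus strand: ccaagagccagcTTTGAAgccaagtgcgag
PLK1, chr16:23678848-23678877, plus strand: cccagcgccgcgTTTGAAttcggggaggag
CDCA8, chr1:37692481-37692510, plus strand: gtgactgtggagTTTGAAttgggtggcggt
NUF2, chr1:163321958-163321987, plus strand: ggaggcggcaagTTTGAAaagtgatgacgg
KIF23, chr15:69414282-69414311, plus strand: ctgattggcccgTTTGAAatgcgccaggcg
NUSAP1, chr15:41332882-41332911, plus strand: tggcgccagggaTTTGAAccgcgctgacga
HMMR, chr5:163460598-163460627, plus strand: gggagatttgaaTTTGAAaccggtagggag
ANLN, chr7:36389830-36389859, plus strand: ctgaaattcaaaTTTGAAcggctgcagagg
CDC20, chr1:43358904-43358933, plus strand: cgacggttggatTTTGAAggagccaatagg
TOP2A, chr17:40418030-40418059, plus strand: ggccggggtttgTTTGAAtaaaccaatcag
The CDK1 and TOP2A words lie on the strand opposite to the gene, and the other 8 on the gene's own strand. The windows held 44 CHR matches in all, of which 35 were on the gene's strand and 32 began within 60 bases of the start, in 26 genes. Matches were counted by window, so CHR sites of CDC25C and ECT2 that lie in overlapping windows count more than once. RCC2 held neither a CHR nor a CCAAT in its window, and KIF20A held CCAAT at 94 and 67 bases before the start and no CHR.

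**Figure D1:**
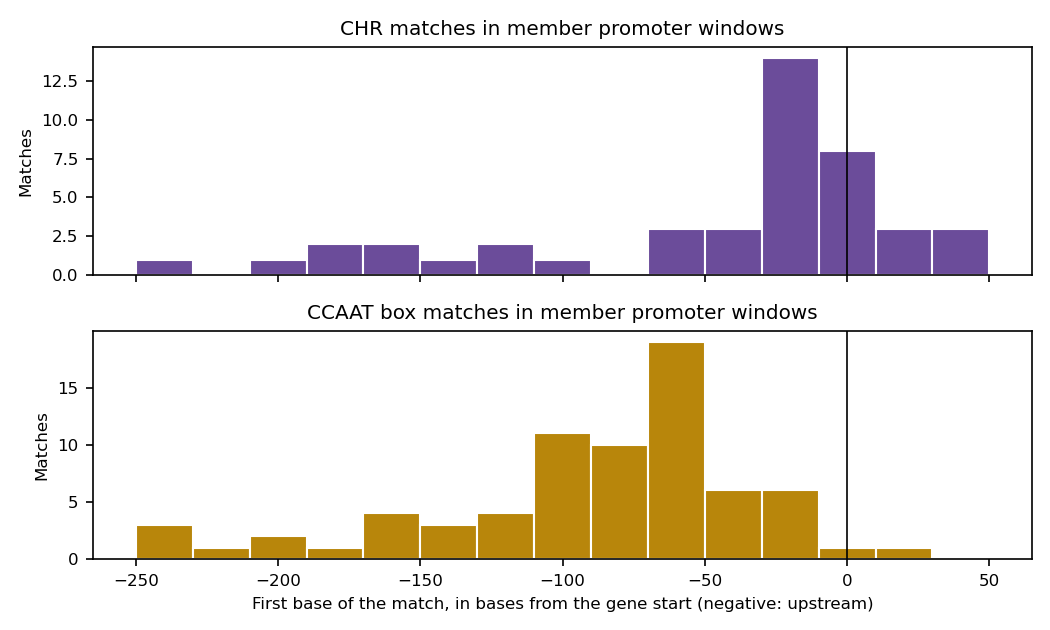
Position of CHR (top) and CCAAT (bottom) matches in the 47 promoter windows; the horizontal axis is the first base of a match relative to the gene start (in bases, negative upstream) and the vertical axis the number of matches per bin. Of 44 CHR matches 32 begin within 60 bases of the start, while CCAAT matches are most frequent further upstream. A site in overlapping windows of a gene counts in each.

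PTPN14 mRNA stood at 21.4 to 28.7% of the same line's control with PTPN14-1 and at 31.2 to 37.5% with PTPN14-2. LATS1 stood at 22.5 to 30.7% and LATS2 at 98.2 to 122% with the LATS siRNA, whose intended target among these genes the labels do not give. Titles and descriptions number the PTPN14 siRNAs in opposite ways, and the numbers here are those of the titles. Estimated depth ran from 17.0 to 23.3 M reads per library, and the fewest estimated reads behind a value of the 43 genes were 312, for CDC25C in CAKI-1 with PTPN14-2. The RNA integrity number was 10 except in the A704 control (9.6). The epithelial markers KRT8 and KRT18 and the kidney marker PAX8 were high in all 12 libraries. CDH1 was near 0 in HK2 (0.04 to 0.07 FPKM) and CAKI-1 (0.06 to 0.17), EPCAM was under FPKM 1 in A704 and CAKI-1, and PAX2 was at 0 in HK2. Of 7 fibroblast markers, LUM and DCN were above FPKM 1 in every HK2 library, with COL1A2 and COL3A1 at 0 there. COL1A1 lay near 1, at 0.93 to 1.49 in HK2 and 0.67 to 1.43 in A704, as did PDGFRB in CAKI-1 (0.62 to 1.72). The 7 summed to 54.8 to 83.8 FPKM in HK2, 0.74 to 1.52 in A704 and 1.19 to 2.56 in CAKI-1. Of 5 leukocyte and 4 endothelial markers CD68 was the only one above FPKM 1 in all 4 libraries of any line. Their part in the line differences was not tested.

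With the LATS siRNA, RCC2 was the only gene of the 43 that passed the threshold of adjusted p under 0.05. RCC2 (chromosome 1, 17406760 to 17439724, minus strand, GRCh38) encodes a chromatin and centromere protein that binds the chromosomal passenger complex and also acts on small GTPases. In A704 its FPKM was 42.6 with control, 28.1 with LATS, 58.9 with PTPN14-1 and 35.9 with PTPN14-2 siRNA. In HK2 the values in the same order were 64.6, 40.3, 74.3 and 59.2, and in CAKI-1 they were 30.4, 21.0, 37.2 and 31.6. The LATS library was the lowest and the PTPN14-1 library the highest of the 4 in every line, while groups overlapped across lines because HK2 was high throughout. RCC2 fell with LATS siRNA by 0.59 on the log2 scale (SE 0.09, 95% interval -0.78 to -0.40), in 3 of 3 lines, to 65.9, 62.4 and 69.1% of control in A704, HK2 and CAKI-1 (limma adjusted p = 0.0243). All log2 values are differences of log2(FPKM + 1). Over all genes tested 0.0978% were called lower and 0.0244% higher with LATS siRNA, so 1 of 43 stands against 15 calls among 12276 genes. The call ended when any control or LATS library, or any line, was left out (adjusted p up to 0.425). GENCODE lists 8 pseudogenes named after RCC2 and an opposite-strand gene, AC004824.1, that shares exon bases with it, and reads from these could not be separated here.

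None of the other 42 genes passed with LATS siRNA by limma, and 5 of the 43 had an unadjusted p under 0.05, as did 1381 of all genes (11.3%). CDC25B, a phosphatase that activates CDK1, came next. Its FPKM was 20.8, 19.0 and 17.0 with control in A704, HK2 and CAKI-1, and 24.4, 24.2 and 23.5 with LATS siRNA. The 3 LATS libraries lay above the 3 controls without overlap, which was not counted over all genes. The log2 difference was 0.33 (SE 0.09), and the limma adjusted p was 0.245. KIF14, a kinesin of cytokinesis, had -0.33 (SE 0.12), CDK1 -0.34 (SE 0.12) and TTK, a spindle checkpoint kinase, -0.24 (SE 0.10), with adjusted p from 0.341 to 0.393. Of the 43 estimates 38 were below 0, with a median of -0.10, against a median of 0.00 over all genes. That median was -0.02 without the CAKI-1 LATS library, -0.18 without the HK2 LATS library and -0.06 without the A704 control. Without the A704, HK2 or CAKI-1 line it was -0.07, -0.19 or -0.03.

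**Figure D2:**
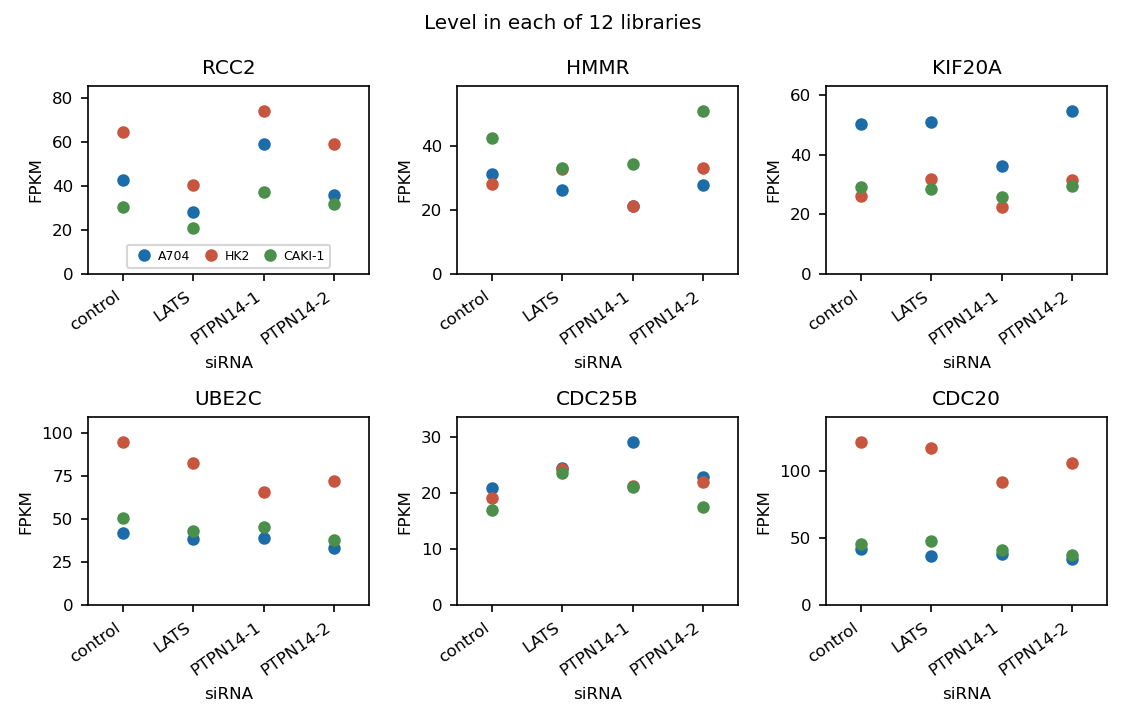
FPKM (linear vertical axis from 0) of 6 genes with each siRNA, 1 point per library coloured by line, for the genes with the smallest p in the siRNA comparisons. RCC2 is lowest with LATS siRNA and highest with PTPN14-1 in every line, and HMMR is lower with PTPN14-1 than with PTPN14-2 in every line.

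The LATS libraries differed between lines in how the genes lay as a set. In A704, 39 of 43 genes were below the control library of the line (median -0.13), and in CAKI-1 also 39 (median -0.23). In HK2 only 12 were below it (median 0.05), while 49.2 to 49.8% of all genes were below control in each line. CENPE, the kinetochore kinesin that carries chromosomes to the spindle equator, stood at 55.9% of control in CAKI-1, 84.5% in A704 and 93.6% in HK2. CDK1 stood at 66.5, 72.8 and 101% in the same order. TPX2, which activates Aurora A on the spindle, stood at 89.3, 97.3 and 114%. Each value is 1 library against 1, so the difference between lines has no test, and every siRNA of a line is set against the same control library.

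With PTPN14-1 siRNA none of the 43 genes passed by limma, against 2.39% of all genes called higher and 3.47% called lower. Of the 43, 12 had an unadjusted p under 0.05, as did 2801 of all genes (22.8%). RCC2 was at 0.31 (SE 0.09, adjusted p = 0.0534), higher in 3 of 3 lines at 138, 115 and 122% of control in A704, HK2 and CAKI-1. HMMR, a spindle protein that binds microtubules and hyaluronan, was at -0.41 (SE 0.12, adjusted p = 0.0636), lower in 3 of 3 lines. CDC25B was at 0.30 (SE 0.09, adjusted p = 0.0735), and its 3 values, 29.04, 21.3 and 21.0 FPKM in A704, HK2 and CAKI-1, lay above all 3 controls. NUSAP1 (-0.18, SE 0.12, adjusted p = 0.41) was the other gene without overlap, below all 3 controls. Such separation was not counted over all genes. KIF20A, a kinesin of the central spindle, was at -0.28 (SE 0.09, adjusted p = 0.0896). PLK1, the Polo kinase of mitotic entry, was at -0.20 (SE 0.07, adjusted p = 0.105). RCC2 passed at 1 alternative filter and 1 alternative scaling given in the closing section.

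Of the 43 PTPN14-1 estimates, 33 were below 0 and the median was -0.11, where 49.5% of all genes were below 0. That median was -0.05 without A704 PTPN14-1, -0.18 without CAKI-1 PTPN14-1 and -0.03 without the A704 line. By role, the medians were -0.22 for the 4 genes of anaphase and ubiquitin transfer, -0.20 for the 5 centromere and kinetochore genes and -0.15 for the 6 spindle proteins. They were -0.03 for the 6 genes of the cyclin, CDK1 and CDC25 group and 0.02 for the cytokinesis pair ANLN and ECT2. The A704 library was below its control at 37 of 43 genes (median -0.22), the HK2 library at 30 (median -0.07) and the CAKI-1 library at 22 (median -0.04). Of all genes 49.1 to 49.6% were below control in these libraries. The siRNAs of a line share 1 control library. In A704 the LATS library was below that same control at 39 genes and the PTPN14-2 library at 29. The 95% intervals of the 43 changes ran from -0.67 to 0.50, so a miss of the threshold does not bound these changes closely.

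With PTPN14-2 siRNA none of the 43 passed by limma either, against 0.448% of all genes called higher and 0.904% called lower. Of the 43, 5 had an unadjusted p under 0.05, as did 1837 of all genes (14.96%). UBE2C, the ubiquitin-conjugating enzyme of the anaphase-promoting complex, had the smallest p. Its FPKM in control and PTPN14-2 libraries was 42.0 and 33.3 in A704, 94.5 and 72.1 in HK2, and 50.6 and 37.6 in CAKI-1. It was lower in 3 of 3 lines, at 74.4 to 79.2% of control, with a log2 difference of -0.38 (SE 0.09, adjusted p = 0.0628). It passed at 1 alternative filter and after quantile normalisation. Its 4 named pseudogenes could share its reads. CDC20, which recruits substrates to the same complex, was at -0.25 (SE 0.09, adjusted p = 0.201). Its FPKM in control and PTPN14-2 libraries was 42.0 and 34.6 in A704, 122 and 106 in HK2, and 45.9 and 37.7 in CAKI-1, lower in each line. In all, 26 estimates were above 0 and 17 below (median 0.04), where 50.8% of all genes were below 0. The 95% intervals of the 43 ran from -0.57 to 0.55. The median turned below 0 without CAKI-1 PTPN14-2 (-0.01), the HK2 control (-0.0034) or the HK2 line (-0.0015). It was 0.08 without the A704 control or A704 PTPN14-2, 0.12 without the A704 line and 0.01 without the CAKI-1 line. The A704 library was below its control at 29 genes, the HK2 library at 12 and the CAKI-1 library at 13. Of all genes 49.2 to 50.4% were below control in these libraries.

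**Figure D3:**
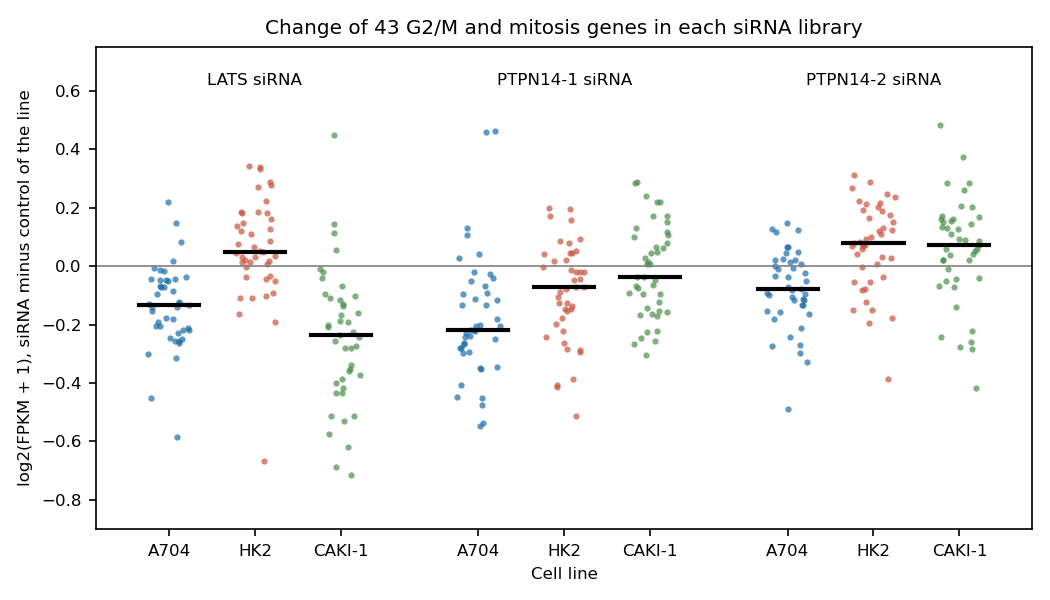
Change of each of the 43 genes, as log2(FPKM + 1) in the siRNA library minus the control library of the same line (vertical axis), by siRNA and line; points are genes and bars are medians, and points sharing a line share its control library. With LATS siRNA 39 of 43 genes lie below 0 in A704 and in CAKI-1 and 12 in HK2.

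Set against each other, the PTPN14 siRNAs differed at 3 of the 43 genes: RCC2 was higher with PTPN14-1, and HMMR and KIF20A were lower. This contrast uses no control library. Over all genes 5.52% were higher and 6.18% lower with PTPN14-1, so 3 of 43 (6.98%) is below the whole-table share. RCC2 differed by 0.42 (SE 0.09, limma adjusted p = 0.00938), in the values given above. HMMR (chromosome 5, 163460203 to 163491945, plus strand) had an FPKM in PTPN14-1 and PTPN14-2 libraries of 21.3 and 27.8 in A704, 21.2 and 33.2 in HK2, and 34.2 and 51.04 in CAKI-1. Its control values were 31.3, 28.0 and 42.5 and its LATS values 26.2, 32.8 and 33.0 in the same line order. PTPN14-1 was the lower of the pair in every line, by 0.52 on the log2 scale (SE 0.12, adjusted p = 0.0149), and groups overlapped across lines.

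KIF20A (chromosome 5, 138178719 to 138187715, plus strand) had an FPKM in PTPN14-1 and PTPN14-2 libraries of 36.0 and 54.8 in A704, 22.5 and 31.5 in HK2, and 25.8 and 29.6 in CAKI-1. Its control values were 50.4, 26.0 and 29.1 and its LATS values 50.97, 31.7 and 28.3. The PTPN14-1 library was the lowest of the 4 in every line, and the contrast between the PTPN14 siRNAs was -0.42 (SE 0.09, adjusted p = 0.0117). KIF20A shares exon bases on the opposite strand with BRD8 and CDC23. In the same contrast CDC23 was higher by 0.24 (SE 0.07, adjusted p = 0.0454) and BRD8 was at -0.18 (SE 0.08, adjusted p = 0.148). HMMR likewise overlaps HMMR-AS1. The strand setting of the authors' counting is not given in the sources used here.

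These calls each rest on few libraries. HMMR did not pass without HK2 PTPN14-1 (adjusted p = 0.0739), HK2 PTPN14-2 (0.0565), CAKI-1 PTPN14-2 (0.0830) or any line (up to 0.1001). KIF20A did not pass when the PTPN14-2 library of A704 (0.0555) or HK2 (0.0537) or either whole line (up to 0.128) was left out, and RCC2 did not pass without A704 PTPN14-2 (0.0520) or those lines (up to 0.111). The spindle proteins ASPM (-0.40, SE 0.14) and NUSAP1 (-0.33, SE 0.12) and the cytokinesis scaffold ANLN (-0.28, SE 0.09) came next in this contrast and did not pass, at adjusted p from 0.0577 to 0.0885. ASPM and NUSAP1 were the 2 of the 43 without overlap between the groups. How many of all genes had no overlap was not counted, so this separation has no share beside it. NUSAP1 FPKM was 61.8, 56.7 and 61.8 with PTPN14-1 and 68.9, 73.8 and 86.1 with PTPN14-2 in A704, HK2 and CAKI-1. The moderated F-test of whether the PTPN14 change differed between lines called 0 of 43 genes and 0% of all genes by limma. No gene of the 43 and 106 of all genes had an unadjusted p under 0.05 in it, with 3 residual degrees of freedom. The test takes the PTPN14 siRNAs as replicates, so the difference between them, which passed at many genes, is its error term, and its 0 calls say nothing of whether the lines responded alike.

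At most of the 43 genes the lines differed far more than the siRNAs. Line accounted for a median of 85.8% of a gene's variance in log2(FPKM + 1) over the 12 libraries, siRNA for 6.44% and the rest for 6.16%. KIF18B, a kinesin that shortens astral microtubules, had the largest line share (98.6%) and NUSAP1, a microtubule bundling protein, the smallest (1.63%). CDC25B had the largest siRNA share (47.2%), and those of RCC2 and HMMR were 39.7 and 32.7%. The siRNA share exceeded the line share at NUSAP1 (46.8 against 1.63%), CDC25B (47.2 against 34.9%), ASPM (43.8 against 29.3%) and KIF23 (32.7 against 27.0%). By mean over its 4 libraries, HK2 was the highest line for 28 of the 43 genes, A704 for 8 and CAKI-1 for 7. CAKI-1 was the lowest line for 27. The variance shares and this order were computed for the 43 genes only. Most of all genes also differed between lines, so a large line share cannot be called particular to the 43.

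**Figure D4:**
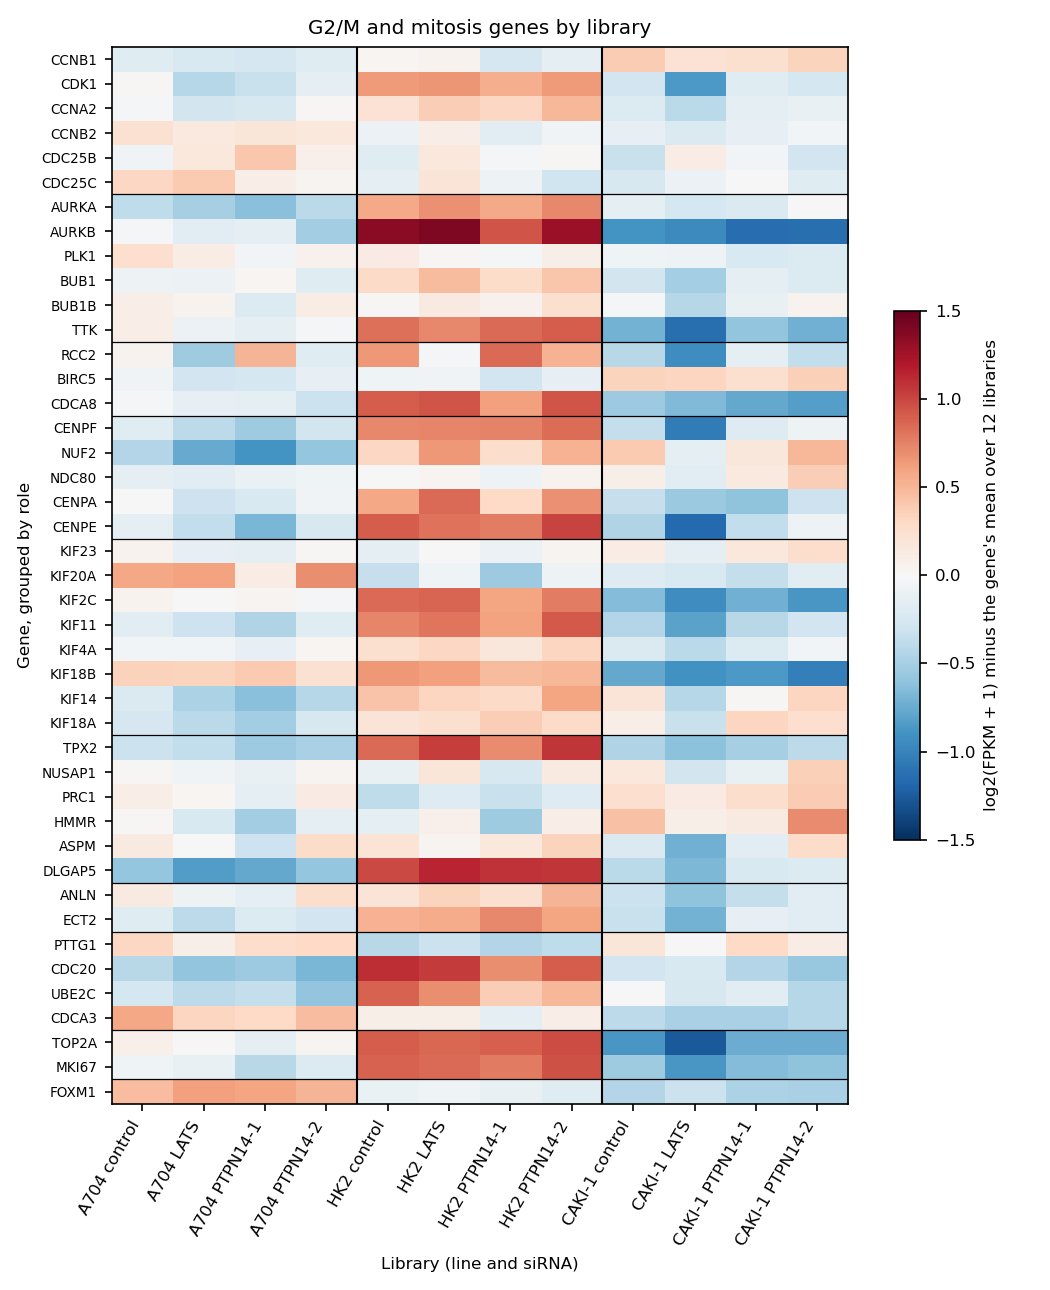
Level of the 43 genes (rows, grouped by role) in the 12 libraries (columns, 4 per line), as log2(FPKM + 1) minus the gene's mean over the 12 libraries; red is above and blue below that mean. HK2 is the highest line for 28 of the 43 genes, and at most genes differences between siRNAs within a line are smaller.

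Against A704, HK2 was higher at 26 of the 43 genes and lower at 7 (median 0.48), where 44% of all genes were called higher and 40.6% lower (median 0.04). CAKI-1 against A704 gave 12 higher and 20 lower (median -0.17), where 41.8% of all genes were higher and 39.3% lower. CAKI-1 against HK2 gave 5 higher and 29 lower (median -0.57), where 40.4% were higher and 41.3% lower. The share of the 43 that differed at all, 74.4 to 79.1%, was no larger than that of all genes, and each line is 1 cell line, so these tests cover the spread between its libraries. HK2 was above both other lines at 24 genes, and below both at PRC1, which bundles central spindle microtubules, and PTTG1, the securin that holds separase inactive until anaphase. CAKI-1 was below both at 16 genes. KIF23 and NUSAP1 passed in no pair of lines. How many of all genes held such joint patterns was not counted, so these counts have no share beside them.

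Of the kinases, all 6 were lower in CAKI-1 than in HK2. AURKB, the kinase of the chromosomal passenger complex, had the largest difference. Its FPKM was 29.4, 26.7, 27.0 and 20.6 in A704 with control, LATS, PTPN14-1 and PTPN14-2 siRNA, 78.3, 81.2, 58.5 and 75.3 in HK2, and 15.7, 14.96, 13.1 and 13.1 in CAKI-1. The ranges of the 3 lines did not overlap. HK2 exceeded A704 by 1.47 (SE 0.09, limma adjusted p = 4.36e-09), 2.83 times in mean FPKM, and CAKI-1 was below HK2 by a difference of -2.28 (SE 0.09, adjusted p = 8.01e-11), 0.194 times.

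AURKA, the Aurora kinase of the spindle poles, had the highest mean FPKM of the 6 mitotic and checkpoint kinases. In the same siRNA order its FPKM was 34.2, 31.3, 28.7 and 33.6 in A704, 66.9, 72.3, 66.8 and 74.5 in HK2, and 40.2, 37.0, 38.4 and 44.5 in CAKI-1. HK2 stood apart, and CAKI-1 lay above A704. TTK was lower in CAKI-1 than in HK2 by a difference of -1.62 (SE 0.08), at a mean FPKM of 8.05 against 26.6. PLK1 differed less: its means in A704, HK2 and CAKI-1 were 40.1 ± 3.5, 38.9 ± 1.9 and 33.7 ± 2.0 FPKM (SD, n = 4 each). The difference between HK2 and A704 for PLK1 was -0.04 (95% interval -0.17 to 0.09).

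The cyclin genes did not share 1 order of lines. CCNB1, the main cyclin B gene and the highest of its role, had FPKM values of 65.9, 63.8, 62.9 and 66.3 in A704, 76.6, 77.8, 62.8 and 67.6 in HK2, and 98.3, 87.5, 89.0 and 95.3 in CAKI-1. Every CAKI-1 library lay above every other, and HK2 and A704 overlapped (difference 0.13, 95% interval -0.02 to 0.28). CDK1, its kinase partner, was instead highest in HK2, at a mean of 111 ± 3.6 against 61.8 ± 8.8 in A704 and 55.0 ± 10.8 in CAKI-1 (SD, n = 4 each). A704 and CAKI-1 did not differ in CDK1 beyond their spread (-0.18, SE 0.11, adjusted p = 0.142). CCNB2 and CDC25C, a phosphatase of mitotic entry and the lowest of the 43 in mean FPKM, were highest in A704.

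Kinetochore and chromosome genes were mostly highest in HK2. CENPF, a large kinetochore protein, had FPKM values of 41.8, 36.1, 32.7 and 39.2 in A704, 79.1, 79.9, 80.3 and 86.1 in HK2, and 36.9, 22.5, 41.7 and 45.1 in CAKI-1. HK2 lay above both lines without overlap, and the other two lines overlapped. CENPE was higher in HK2 than in A704 by 1.24 (SE 0.15, adjusted p = 5.86e-06). NUF2, part of the NDC80 microtubule attachment complex, was higher in CAKI-1 than in A704 by 0.89 (SE 0.12), at means of 31.1 and 16.2 FPKM.

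TOP2A, the topoisomerase that untangles chromosomes, was the highest of the 43 genes in mean FPKM. Its values were 99.7, 94.95, 85.5 and 97.1 in A704, 178, 173, 176 and 187 in HK2, and 51.1, 38.9, 56.1 and 55.9 in CAKI-1, with no overlap between lines. It was lower in CAKI-1 than in HK2 by a difference of -1.81 (SE 0.09, adjusted p = 5.65e-10) and lower than in A704 by -0.90 (SE 0.09). MKI67 followed the same order, at means of 77.4 ± 4.0 in HK2, 36.5 ± 3.9 in A704 and 26.2 ± 2.7 in CAKI-1 (SD, n = 4 each). CDCA8, the passenger complex subunit borealin, was lower in CAKI-1 than in HK2 by a difference of -1.56 (SE 0.08). BIRC5, or survivin, of the same complex, was instead above both other lines in CAKI-1.

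Among spindle and motor genes, DLGAP5, a kinetochore fibre protein, had the largest difference between HK2 and A704, at 1.76 (SE 0.09, adjusted p = 4.65e-10), 3.58 times in mean FPKM. TPX2 was the highest spindle gene, with 55.5, 54.0, 47.4 and 49.7 in A704, 127, 144, 114 and 148 in HK2, and 50.8, 45.3, 49.0 and 52.9 in CAKI-1. HK2 exceeded A704 by 1.35 (SE 0.08), while A704 and CAKI-1 overlapped. KIF18B was lower in CAKI-1 than in A704 by a difference of -1.22 (SE 0.06), at 5.74 against 14.7, and KIF2C, a microtubule depolymerase, was lower in CAKI-1 than in HK2 by -1.56 (SE 0.08). KIF23, the central spindle motor and the highest kinesin, had 37.8, 33.3, 32.6 and 36.8 in A704, 32.9, 36.0, 34.2 and 37.3 in HK2, and 39.1, 32.5, 40.4 and 43.8 in CAKI-1. The KIF23 ranges overlapped in all 3 lines.

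ANLN, which links the actin ring of dividing cells to the membrane, had 76.3, 65.7, 63.2 and 83.2 in A704, 79.6, 87.6, 82.2 and 98.9 in HK2, and 55.2, 45.3, 53.8 and 61.4 in CAKI-1. CAKI-1 lay below the other lines, and HK2 and A704 overlapped. CDC20 was higher in HK2 than in A704, at 2.89 times the mean FPKM (adjusted p = 4.01e-10). PTTG1 went the other way, with 111, 95.5, 108 and 111 in A704, 67.1, 71.3, 66.1 and 68.6 in HK2, and 102, 89.8, 110 and 97.3 in CAKI-1. CDCA3, a trigger of WEE1 degradation, was lower in CAKI-1 than in A704 by -0.86 (SE 0.07).

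FOXM1, the transcription factor of many of these genes, was not highest in HK2. Its values were 51.9, 57.6, 56.9 and 53.7 in A704, 34.8, 35.7, 34.4 and 32.9 in HK2, and 27.2, 29.5, 26.5 and 26.2 in CAKI-1. The ranges did not overlap, and A704 was the highest. HK2 was below A704 by a difference of -0.66 (SE 0.06, adjusted p = 1.57e-07) and CAKI-1 by -0.98 (SE 0.06, adjusted p = 3.74e-09). MYBL2, which encodes B-MYB and is outside the 43, was at 129 to 176 FPKM in HK2, 24.0 to 29.9 in A704 and 37.4 to 52.95 in CAKI-1.

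**Figure D5:**
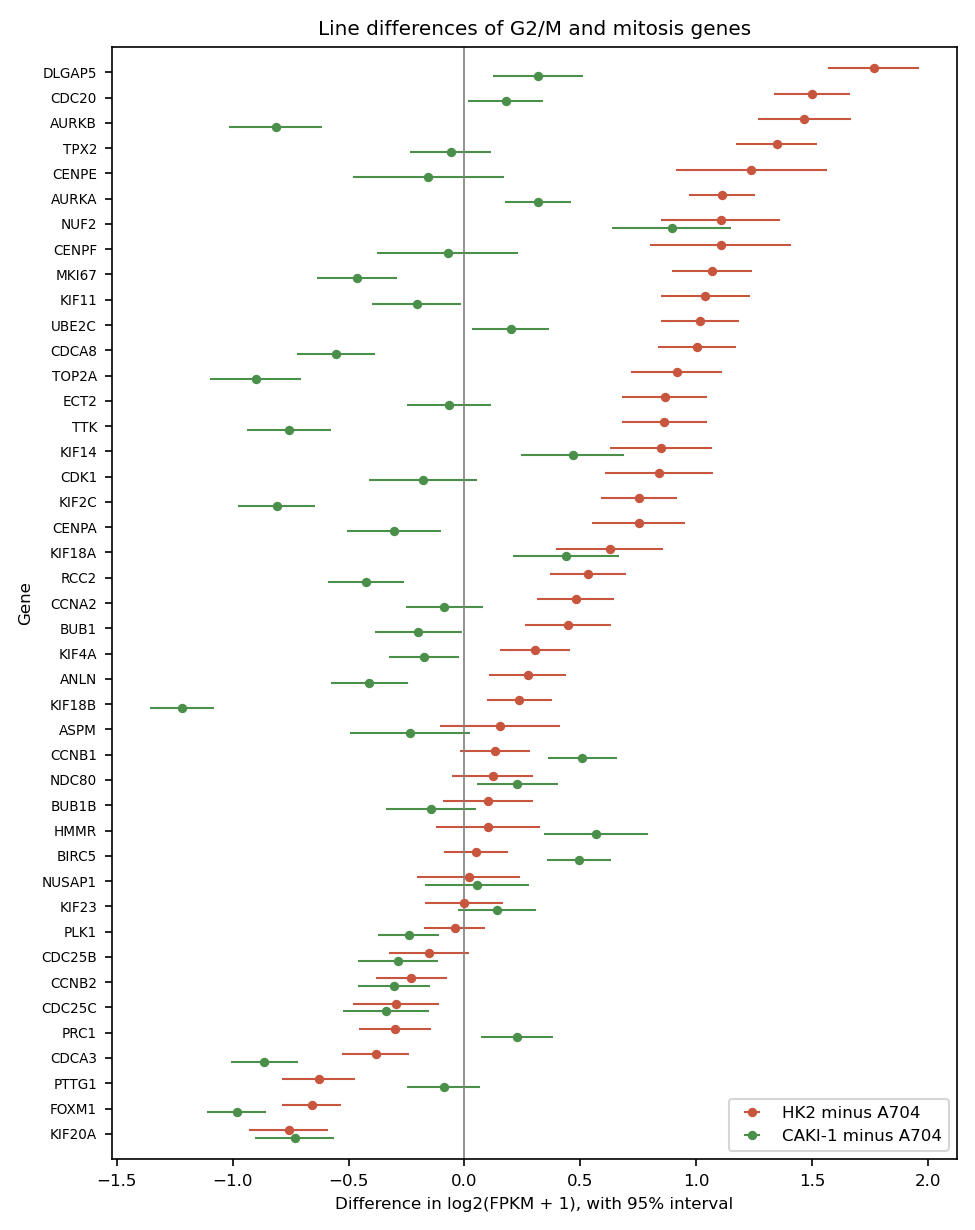
Difference in log2(FPKM + 1) of each of the 43 genes for HK2 minus A704 (red) and CAKI-1 minus A704 (green), with 95% intervals from limma, ordered by the first difference. DLGAP5 (1.76) is at the top and KIF20A (-0.76) at the bottom, and KIF18B is the lowest gene for CAKI-1 (-1.22).

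Other genes of the pathway were counted from lists, with the share of all genes called in the same contrast beside them. The lists were chosen with earlier results of these data known, so the counts are descriptions and not tests. In these counts a gene rose, fell or changed where it passed the threshold, and the others are not shown to be unchanged. Of 59 further mitosis genes, 0 rose and 3 fell with PTPN14-1, near the 2.39% higher and 3.47% lower of all genes, and none changed with PTPN14-2 or LATS siRNA by limma. KIFC1, a minus-end kinesin that focuses spindle poles, fell by 0.81 (SE 0.10, adjusted p = 9.51e-04), from 28.5 to 18.2 FPKM in A704, 31.4 to 16.1 in HK2 and 10.5 to 5.13 in CAKI-1. ARHGEF39 and SAPCD2 fell by 0.37 and 0.36. Between the PTPN14 siRNAs 1 of the 59 was higher and 6 lower with PTPN14-1 (5.52 and 6.18% of all genes), led by KIFC1 (-0.65, SE 0.10) and SPC25, a kinetochore subunit (-0.49, SE 0.09).

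Of 21 regulators of G2/M transcription, 3 fell with PTPN14-1 and none rose, where 3.47% of all genes fell. E2F8, an atypical repressor of the E2F family, fell by 0.88 (SE 0.13, adjusted p = 0.00258), and E2F4 and RBL1, which join the DREAM repressor complex, fell by 0.39 each. With LATS siRNA 2 of the 21 fell, against 0.0978% of all genes. As the list was chosen with earlier results of these data known, this count is not a test of the list. E2F5 fell by 1.05 (SE 0.11, adjusted p = 0.00127) and TFDP1, the partner of E2F proteins, by 0.49 (SE 0.08, adjusted p = 0.0278). None changed with PTPN14-2. Between the PTPN14 siRNAs 3 were higher and 4 lower with PTPN14-1 (5.52 and 6.18% of all genes), among the latter MYBL2 (-0.40, SE 0.09).

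Of 22 genes of the anaphase-promoting complex and mitotic exit, 1 rose and 1 fell with PTPN14-1, PPP2R2A (0.27) and CDC26 (-0.53), near the 2.39 and 3.47% of all genes. With PTPN14-2, UBE2S, which extends ubiquitin chains after UBE2C, fell by 0.37 (SE 0.08, adjusted p = 0.0379), where 0.904% of all genes fell. With LATS siRNA none of the 22 changed, and between the PTPN14 siRNAs 1 was higher and 2 were lower with PTPN14-1 (5.52 and 6.18% of all genes). Of 11 measured genes of the G2 checkpoint and of mitotic entry control, 2 rose with PTPN14-1 and none fell (2.39 and 3.47% of all genes). The list mixes genes that delay and genes that drive mitotic entry. GADD45B rose by 0.73 (SE 0.08, limma adjusted p = 4.10e-04) and WEE1, the kinase that inhibits CDK1, by 0.43 (SE 0.10, adjusted p = 0.0312). In A704, HK2 and CAKI-1, WEE1 FPKM was 9.85, 9.03 and 9.3 with control and 10.46, 15.51 and 13.51 with PTPN14-1. It was 10.65, 13.32 and 11.11 with LATS and 10.52, 12.53 and 12.62 with PTPN14-2 siRNA. GADD45B was above control with LATS siRNA in each line. None of the 11 passed the threshold with the other siRNAs. With PTPN14-1 2 were higher than with PTPN14-2 (5.52% of all genes), GADD45B and GADD45A.

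Of 50 DNA replication genes, 0 rose and 2 fell with PTPN14-1, near the 3.47% of all genes that fell, among them GINS2, a subunit of the replicative helicase (-0.41, SE 0.07). Between the PTPN14 siRNAs 6 were lower with PTPN14-1, against 6.18% of all genes. Of 21 measured p53 target genes, 5 rose with PTPN14-1 and none fell (2.39 and 3.47% of all genes), led by TP53INP1 (0.49, SE 0.09), BTG2 (0.54, SE 0.11) and TIGAR (0.43, SE 0.09). CDKN1A, which encodes the CDK inhibitor p21 and is 1 of the 5, rose by 0.40 (SE 0.09, adjusted p = 0.0185). Between the PTPN14 siRNAs 5 were higher and 1 was lower with PTPN14-1 (5.52 and 6.18% of all genes). Neither list had a gene that changed with PTPN14-2 or LATS siRNA.

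Between lines most genes differed: 44% of all were higher and 40.6% lower in HK2 than in A704, and 40.4% higher and 41.3% lower in CAKI-1 than in HK2. The same lists gave 40 of 50 replication genes higher and 6 lower in HK2 than in A704 (median 0.74), and 0 higher and 45 lower in CAKI-1 than in HK2 (median -1.21). The 59 further mitosis genes gave 37 higher and 13 lower, and 2 higher and 49 lower, in the same contrasts (medians 0.33 and -0.67). Of the 21 p53 targets 18 were lower and 3 higher in HK2 than in A704 (median -1.20), with CDKN1A at a difference of -2.20 (SE 0.07).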

How the data were processed

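PolyA RNA of 12 libraries was analysed from 1 table of FPKM per gene that the authors deposited; the values, fractional and with unequal library sums, are the source of this unit. Per the submitters' processing notes the aligner was STAR 2.4.0g1 and the genome build GRCh38.p1; for the counter, its annotation and its strand setting nothing is given in the sources used here. Depth was estimated at 17.0 to 23.3 M reads per library from the steps of single-exon genes, assuming gene lengths from GENCODE 29, which also gave coordinates. FPKM is not a count, so log2(FPKM + 1) was tested with limma 3.58.1 (R 4.3.3, statmod 1.5.0, trend and robust moderation) on 12276 genes (FPKM over 1 in 3 libraries or more), checked on simulated data. The model held line and siRNA (6 residual degrees of freedom), p-values were adjusted by Benjamini-Hochberg over all genes, and the threshold was 0.05. Line is the block, since libraries of a line come from the same cell line. The labels do not say that libraries were separate cultures, so p-values cover only the spread between these libraries. The 43 genes, their roles and all lists were chosen with earlier results of these data known. Genes were named by rule: those passing a siRNA contrast, the 2 with the smallest p in each, the highest of each role, the 5 largest differences in each line contrast, and up to 3 per other list and siRNA contrast; CDC23, BRD8, CDKN1A, MYBL2 between lines, and further genes of the 43 were added after their values were seen. Alternatives covered pseudocount, filter, scaling, moderation, block, siRNA coding and leaving out each library or line. Rows with dates in place of symbols (29) are named nowhere. Besides RCC2 and UBE2C, GENCODE names pseudogenes after KIF18B, CCNB2, AURKA, BUB1, CDC20, DLGAP5 and MKI67. BUB1B, CENPA, NUSAP1 and PRC1 share exon bases with another gene on the same strand. Reads from these could not be separated. Some genes of the lists are not reported here.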

Additional observations from a re-analysis of the deposited data

Results flagged for a closer look

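In 3 of 129 sets of 4 libraries (1 gene in 1 line; 2.33%), the highest or lowest library stood apart from the other 3 by Dixon's criterion, which chance meets in about 1 in 20 sets. All 3 were in HK2. CENPF was at 86.08 FPKM with PTPN14-2, where the next library was at 80.27 and the lowest at 79.09. CDCA3 was at 10.87 with PTPN14-1, with the others from 13.02 to 13.1. CDCA8 was at 35.17 with PTPN14-1, with the others from 43.29 to 44.28.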

How the results depend on the processing

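The number of the 43 genes called with PTPN14-1 siRNA went from 0 to 1 with the filter at FPKM above 5 and with median-ratio scaling (RCC2, higher), and ran from 0 to 1 when libraries or lines were left out. With PTPN14-2 siRNA it went from 0 to 1 with the same filter and with quantile normalisation (UBE2C, lower), and from 0 to 1 with libraries or lines left out. With LATS siRNA it went from 1 to 0 with no filter, with no replicate block (no line term) and with 1 PTPN14 target level, and ran from 0 to 1 with libraries or lines left out. Between the PTPN14 siRNAs it went from 3 to 0 with no replicate block, and ran from 0 to 6 with libraries or lines left out: 0 without the A704 or HK2 line, 1 without A704 or HK2 PTPN14-2, and 6 (1 higher, 5 lower) without the HK2 or the CAKI-1 LATS library. The RCC2 fall with LATS siRNA had adjusted p from 0.0109 to 1.00 over its 24 alternatives. The line counts stayed at 33 to 34, 27 to 32 and 33 to 35, the 15 named line differences kept direction and call in 315 of 315 values, and the 9 named siRNA differences in 172 of 209, with none turning direction. The interaction count was 0 in 16 alternatives; it was not run without a control library or a line. The causes of these changes were not tested. The fewest estimated reads behind a value of the 43 genes were 312, which rests on assumed gene lengths, and the part of depth was not tested. With 3 libraries per siRNA a small change may not pass.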
